A study of Mus musculus with 6 samples.

Results

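Genes of late spermatocytes and spermatids were examined in testes of mice at postnatal day 9. The set holds 32 genes chosen by name for their known use late in spermatogenesis, and 31 of them were measured, each by 1 row, among 17277 named genes on the arrays. Spem1, a gene of spermatid shaping, was not analysed here. RNA came from 3 Dmrt1 KO samples, which were Cre-positive, and from 3 control samples, which were Cre-negative. Both groups belong to a line that the labels call NGN-cre. The sources used here do not give what drives this Cre, which Dmrt1 allele it targets or whether animals were pooled. Because only the Dmrt1 KO samples carry Cre, its own effect and that of losing Dmrt1 cannot be told apart. Each sample was hybridised to 1 single-colour array of long oligonucleotides. All values below are log2 of the deposited intensity unless stated otherwise, and a difference is the Dmrt1 KO mean minus the control mean with its moderated standard error (SE).

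Spermatogenesis runs from spermatogonia through the long prophase of meiosis to haploid spermatids, which then build an acrosome, a flagellum and a compacted nucleus. The genes for these structures are mostly switched on from the pachytene spermatocyte onwards, under regulators such as the transcription factor CREM, and many of their mRNAs are stored before they are translated. At postnatal day 9 the first wave of mouse germ cells is only entering meiosis, so round and elongating spermatids are not yet present. DMRT1 is a transcription factor of Sertoli cells and premeiotic germ cells that is known to restrain entry into meiosis.

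The targeted gene was lower in the Dmrt1 KO arrays. Dmrt1 read 11.98, 12.08 and 12.27 in Dmrt1 KO replicates 1, 2 and 3, against 13.59, 13.49 and 13.21 in control replicates 1, 2 and 3, a difference of -1.32 ± 0.20 (SE, n = 3 per group, limma adjusted p = 0.124). Dmrt1 KO replicate 3 stood apart from the other arrays, with no correlation of log2 intensity across rows above 0.973, where every other pair of arrays had at least 0.978. All 14 measured Sertoli cell markers, all 9 Leydig cell markers and all 17 measured meiotic prophase markers had a mean above the background guide described below. No label states that each sample was a different animal, and the p-values cover only the spread between these arrays.

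The promoters of members above background that were higher in every Dmrt1 KO array are given first. Of 31 measured members, 5 lay above background and had all arrays of one group above all arrays of the other: Izumo1, Piwil1 and Tekt1 were higher in the Dmrt1 KO arrays (3 of the 16 members above background, where 6.54% of all rows above it were) and Ddx25 and Ybx2 were lower (2 of 16, where 9.63% of all rows above it were). The sequences below are the 250 bases before the start of the higher genes in RefSeq (assembly GRCm38.p6), printed 5′ to 3′ on the strand of the gene, at chr7:45621561-45621810 (plus strand) for Izumo1, chr5:128735996-128736245 (plus strand) for Piwil1 and chr11:72361883-72362132 (minus strand, the first of 2 listed starts) for Tekt1. Capitals mark TGACG, the core of the cAMP response element that CREM and related factors bind, CAGTTG, a core of MYB sites, and ACANTGT, a core of DMRT1 sites, on either strand.
Izumo1: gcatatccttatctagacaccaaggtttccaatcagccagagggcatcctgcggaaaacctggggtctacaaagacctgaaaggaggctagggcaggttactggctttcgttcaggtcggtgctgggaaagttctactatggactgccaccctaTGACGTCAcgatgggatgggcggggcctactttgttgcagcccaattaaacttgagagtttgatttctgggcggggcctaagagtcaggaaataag
Piwil1: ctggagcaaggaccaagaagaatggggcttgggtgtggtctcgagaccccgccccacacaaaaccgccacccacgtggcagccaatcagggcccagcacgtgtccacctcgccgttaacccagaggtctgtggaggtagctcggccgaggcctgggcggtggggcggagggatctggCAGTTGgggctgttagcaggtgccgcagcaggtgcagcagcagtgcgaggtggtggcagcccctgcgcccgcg
Tekt1: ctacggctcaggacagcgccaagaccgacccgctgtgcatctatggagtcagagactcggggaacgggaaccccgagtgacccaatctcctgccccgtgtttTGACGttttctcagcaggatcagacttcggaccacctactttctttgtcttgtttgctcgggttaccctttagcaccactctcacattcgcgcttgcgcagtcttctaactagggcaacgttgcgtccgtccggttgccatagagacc

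The Izumo1 window held the whole palindromic element TGACGTCA, which starts 96 bases before the start and contains TGACG on both strands. No other member had this element in any of its windows: it was found in 1 of 42 windows of the 26 members with RefSeq windows, against 1.55% of all 32851 windows of the same length. The shorter TGACG was found in 10 of 42 member windows (17.8% of all windows), among them 1 of Ldhc that holds it at 61 and at 47 bases before the start. These 10 windows belong to 7 of the 26 members, and the windows of Odf2 and of Spaca1 overlap and share sites. CAGTTG was found in 2 of 42 (11.1%) and ACANTGT in 1 of 42, that of Smcp (6.47%). One of those with CAGTTG is the other listed start of Tekt1, which is not printed above. It also holds TGACG, at 236 and at 20 bases before that start. None of the 4 motifs was found in the windows of Ddx25 or Ybx2. These matches describe letters in these windows, and nothing measured here bears on binding.

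About as many members lay in the range of background as above it. Rows for olfactory receptors, genes of the nasal epithelium, served as a guide to background, since most of them are silent in other tissues. The guide was the 95th percentile of the means of 1064 such rows, a log2 intensity of 7.19. A mean above it was found for 16 of 31 members (51.6%), against 69.7% of all named genes, and the other 15 lay at or below it. All 4 regulators of transcription and RNA were above the guide, as were 4 of 6 genes of the acrosome and of egg interaction and 6 of 11 genes of the flagellum, midpiece and manchette. Of the 2 testis-specific kinases 1 was above it, of the 5 genes listed as sperm chromatin proteins 1, which was Prm3, and of the 3 sperm enzymes of sugar metabolism 0. The members just above the guide were Odf1 (mean 7.44) and Tcp11 (7.40), and those just below were Tnp1 (7.07) and Prm1 (6.93). Probes differ in how well they bind, so a level is set here against the guide and not against another gene, and a mean at or below the guide does not show that a transcript was missing.

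**Figure D1:**
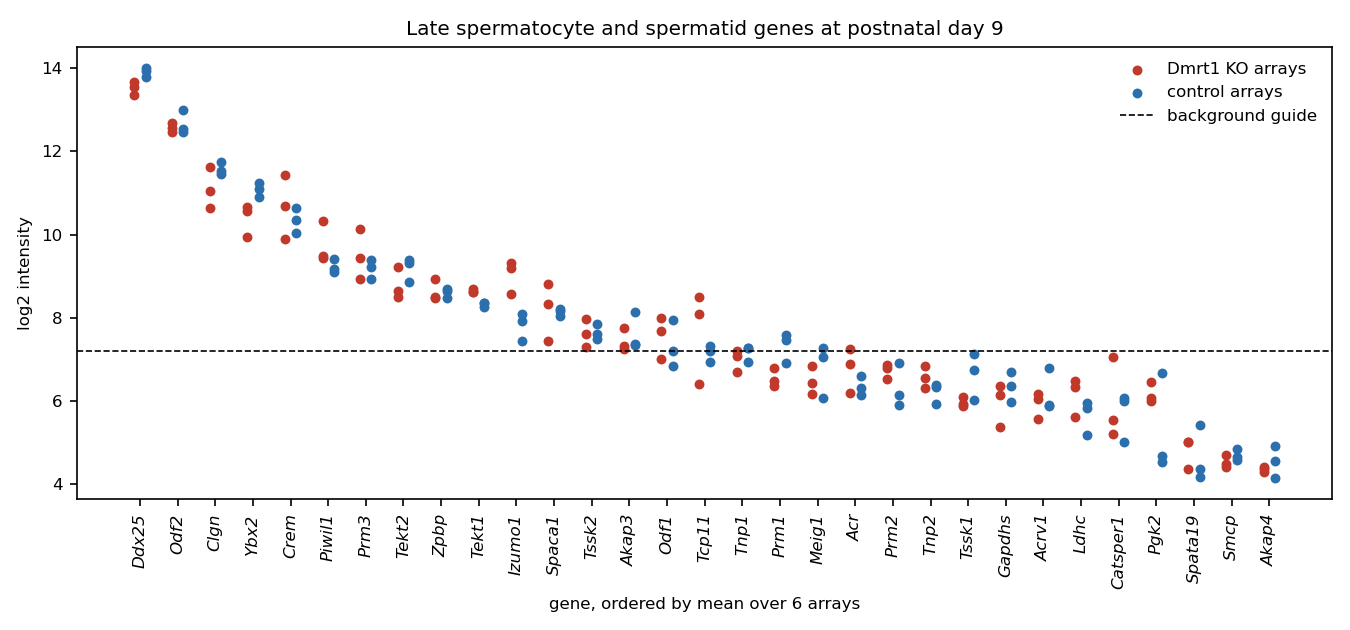
Log2 intensity (y axis) of the 31 measured members (x axis, ordered by mean) on 3 Dmrt1 KO arrays (red, left) and 3 control arrays (blue, right), 1 point per array. The dashed line is the background guide at 7.19, with 16 members above it from Ddx25 to Tcp11 and 15 below it from Tnp1 to Akap4, and for most members the colours overlap.

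None of the 31 members passed the test between groups. Limma with Benjamini-Hochberg adjustment over all 25631 rows called 0 members, where it called 0.0312% of all rows, and the smallest adjusted p among the members was 0.247, for Izumo1. At an unadjusted p of 0.05, 1 member was higher (4.41% of all rows were) and 2 were lower (5.1% of all rows). All 3 Dmrt1 KO arrays lay above all 3 controls for 3 members (9.68%, against 6.8% of all rows) and below them for another 3 (9.68%, against 8.54% of all rows). These shares are near the background, so the counts alone set the members apart in neither direction. The median difference was 0.03 over the 31 members, with 16 above 0 and 15 below, beside -0.02 over all rows. Over the 16 members above the guide it was 0.04, beside -0.03 over all rows above the guide. In whole testis RNA, fewer cells of a type and less RNA per cell cannot be told apart.

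**Figure D2:**
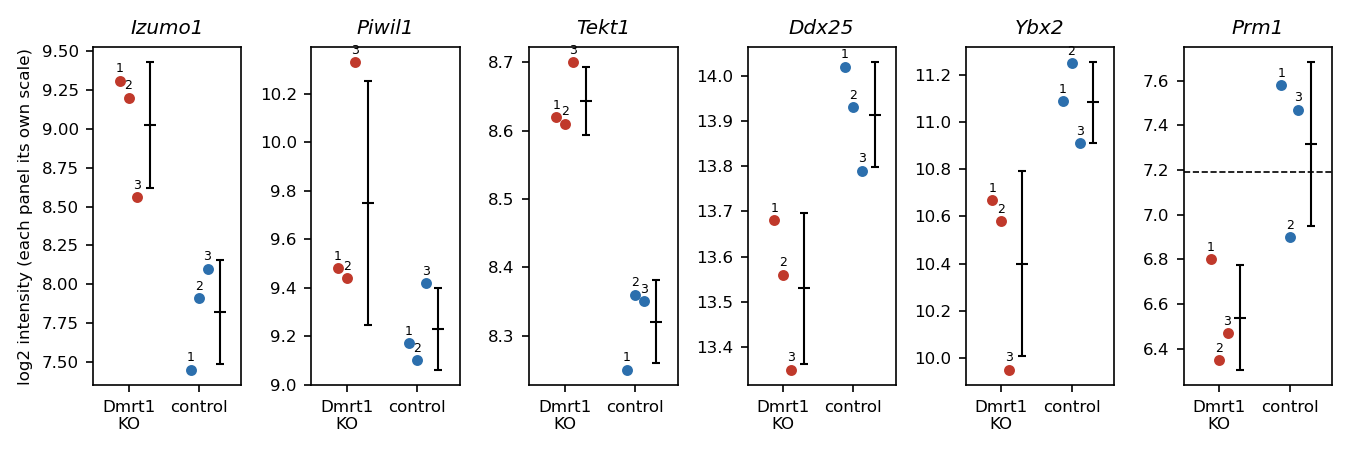
Log2 intensity (y axis, each panel on its own scale) of the 6 members whose groups did not overlap, with each array as a point numbered by replicate and the mean ± SD beside it. Izumo1, Piwil1 and Tekt1 are higher in the Dmrt1 KO arrays (red, left) than in controls (blue, right), Ddx25, Ybx2 and Prm1 are lower, and the dashed line in the Prm1 panel is the background guide at 7.19.

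Among regulators of transcription and RNA, the members lay on both sides of 0. Ybx2 encodes a Y-box protein that binds and stores mRNA in meiotic and postmeiotic germ cells. It read 10.67, 10.58 and 9.95 in Dmrt1 KO replicates 1, 2 and 3, against 11.09, 11.25 and 10.91 in controls, a difference of -0.68 ± 0.25 (1.61-fold, SE, limma unadjusted p = 0.025, adjusted p = 0.442). Every Dmrt1 KO array was below every control, and replicate 3 was the lowest: without it the difference was -0.46 (adjusted p = 0.495). Ddx25, an RNA helicase of spermatocytes, spermatids and Leydig cells, read 13.68, 13.56 and 13.35 in Dmrt1 KO arrays, against 14.02, 13.93 and 13.79 in controls. The groups did not overlap, but the difference of -0.38 ± 0.19 had an adjusted p of 0.594. All 9 Leydig cell markers lay above 0, with a summed intensity of 148269, 139929 and 169736 in Dmrt1 KO arrays, against 129205, 107371 and 133845 in controls. Their median deviation from their own means over the arrays, in which each gene counts alike, overlapped between groups. It was 0.1, -0.06 and 0.32 in Dmrt1 KO arrays, against -0.11, -0.26 and 0.01 in controls. Hsd17b3 (0.45 ± 0.20), Cyp17a1 (0.52 ± 0.26) and Cyp11a1 (0.19 ± 0.20), enzymes of steroid synthesis, had separated groups. These were 3 of the 9 Leydig cell markers, all higher, as were 6.8% of all rows. The part of Leydig cells in the Ddx25 difference was not tested. Ybx1 and Ybx3, related Y-box genes used in many cells, differed by -0.08 ± 0.23 and 0.20 ± 0.22.

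Piwil1, also called Miwi, encodes the PIWI protein that carries pachytene piRNAs. It read 9.48, 9.44 and 10.33 in the Dmrt1 KO arrays and 9.17, 9.10 and 9.42 in controls, a difference of 0.52 ± 0.28 (adjusted p = 0.606). The separation was narrow, since Dmrt1 KO replicate 2 exceeded control replicate 3 by very little and replicate 3 carried much of the mean. Without Dmrt1 KO replicate 3 the Piwil1 difference was 0.23 (adjusted p = 0.779). Piwil2, its relative in spermatogonia and early spermatocytes, differed by 0.10 ± 0.20. Crem, whose activator isoforms drive spermatid genes and whose other isoforms repress, read 10.69, 9.90 and 11.43 in Dmrt1 KO arrays, against 10.35, 10.03 and 10.65 in controls. The Dmrt1 KO values of Crem enclosed those of the controls, the difference was 0.33 ± 0.38 (limma adjusted p = 0.849), and it was -0.04 without Dmrt1 KO replicate 3, 0.72 without replicate 2 and 0.18 without control replicate 2. Which isoforms the 1 Crem row detects was not tested.

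Among acrosome and egg interaction genes, Izumo1 had the largest difference of all 31 members. IZUMO1 is the sperm surface protein that binds JUNO on the egg and is needed for fusion. Its row (NM_001018013) read 9.31, 9.20 and 8.56 in Dmrt1 KO replicates 1, 2 and 3, against 7.45, 7.91 and 8.10 in control replicates 1, 2 and 3. Every Dmrt1 KO array was above every control, by a mean of 1.21 ± 0.28 (2.31-fold, SE, unadjusted p = 0.00249, limma adjusted p = 0.247, unadjusted 95% interval 0.57 to 1.85). Within the groups of arrays that share the start of their array number, the Izumo1 difference was 1.87 in the first and 1.20 in the second. The first sets Dmrt1 KO replicate 1 against control replicate 1, and the second Dmrt1 KO replicate 2 against control replicates 2 and 3. Without Dmrt1 KO replicate 3, the array that stood apart, it was 1.44 with an adjusted p of 0.096. With log2(value + 50) the Izumo1 fold was 2.07.

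Markers of the epididymis and rete, parts of the duct system that drains the testis, also lay mostly above 0. Of 14 measured 13 lay above 0, 8 of the 14 had a mean above the guide, and their summed intensity was 11609, 16035 and 6424 in Dmrt1 KO replicates 1, 2 and 3, against 6977, 2920 and 3566 in controls. The sums overlapped between groups. Counting each gene alike, the median deviation of these markers from their own means did not overlap. It was 0.69, 0.99 and 0.07 in Dmrt1 KO arrays, against -0.29, -0.7 and -0.81 in controls, and the median difference was 1.09. Spink8 and Crisp1 varied widely between arrays of the same group. Spink8 read 11.17, 12.15 and 4.44 in Dmrt1 KO arrays, against 10.89, 5.28 and 7.85 in controls. Crisp1 read 9.73, 10.96 and 4.46 in Dmrt1 KO arrays, against 9.7, 4.11 and 6.49 in controls. The duct markers with separated groups and the smallest p were the tight junction gene Cldn4 (1.95 ± 0.26), the keratin gene Krt18 (1.79 ± 0.33) and Pax8 (1.14 ± 0.23), all higher, and Rnase10, below the guide and lower (-1.12 ± 0.26). Of the 19 measured genes of undifferentiated spermatogonia 13 lay above 0, with a summed intensity of 74121, 75629 and 64307 in Dmrt1 KO arrays, against 53704, 38518 and 59012 in controls. Counting each gene alike, the median deviation of these genes from their own means overlapped between groups. It was 0.28, 0.19 and -0.12 in Dmrt1 KO arrays, against 0.04, -0.41 and 0.04 in controls, and the median difference was 0.11. Of these spermatogonial genes, those with separated groups and the smallest p were Cdh1 (2.67 ± 0.37), Pou5f1 (1.41 ± 0.39) and Upp1 (0.66 ± 0.24), all higher, and Nanos3, which was lower (-0.45 ± 0.25). Groups were separated and higher in 5 of the 19 spermatogonial genes and 4 of the 14 duct markers, as in 6.8% of all rows. They were separated and lower in 1 gene of each list, as in 8.54% of all rows. None of these genes passed the adjusted test with all 6 arrays. Without Dmrt1 KO replicate 3, Cdh1 (2.93, adjusted p = 0.0238) and Cldn4 (2.11, adjusted p = 0.0299) passed it, and Nanos3 was at -0.21. The part of either in the Izumo1 difference was not tested.

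The other acrosome genes did not separate the groups. Clgn encodes calmegin, a chaperone of the endoplasmic reticulum that sperm surface proteins need to fold. It read 11.06, 11.62 and 10.63 in Dmrt1 KO arrays, against 11.75, 11.52 and 11.47 in controls, with a difference of -0.48 ± 0.28 (adjusted p = 0.644). Dmrt1 KO replicate 2 lay among the controls and replicate 3 was lowest, and the Clgn difference was -0.24 without replicate 3 and -0.74 without replicate 2. Canx, which encodes the related chaperone of other cells, differed by 0.20 ± 0.19. Spaca1, an acrosomal membrane protein gene, read 8.81, 8.32 and 7.45 in Dmrt1 KO arrays, against 8.04, 8.21 and 8.17 in controls, so that the Dmrt1 KO arrays lay on both sides of the controls (0.05 ± 0.34). Zpbp, an acrosomal matrix gene, read 8.93, 8.47 and 8.50 in Dmrt1 KO arrays and 8.69, 8.64 and 8.47 in controls, with a difference of 0.03 ± 0.21 and a 95% interval of -0.45 to 0.52. Acr (acrosin, the acrosomal protease, 0.44 ± 0.30) and Acrv1 (an acrosomal vesicle protein, -0.26 ± 0.31) had both group means below the guide and overlapping groups.

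Of the flagellum and sheath genes, 6 lay above the guide, and 1 of these separated the groups. Tekt1, a tektin of the axonemal microtubules, read 8.62, 8.61 and 8.70 in Dmrt1 KO arrays, against 8.25, 8.36 and 8.35 in controls. All Dmrt1 KO arrays were above the controls and both groups had an SD of at most 0.06, but the difference was 0.32 ± 0.18 with an adjusted p of 0.629. Tekt2, a second tektin, read 8.65, 8.51 and 9.23 in Dmrt1 KO arrays and 9.31, 9.39 and 8.85 in controls, a difference on the other side of 0 (-0.39 ± 0.26). Its Dmrt1 KO replicates 1 and 2 were below all controls and replicate 3 was not. Without Dmrt1 KO replicate 3 the Tekt2 difference was -0.60, with an adjusted p of 0.42, and without replicate 2 it was -0.24 (adjusted p = 0.859). That of Tekt1 ran only from 0.29 to 0.34 with any 1 array left out.

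Tcp11, a gene of sperm motility, differed widely among the Dmrt1 KO arrays. It read 8.50, 8.09 and 6.40 in Dmrt1 KO arrays, against 6.93, 7.20 and 7.31 in controls: replicates 1 and 2 were above every control and replicate 3 below every control, and the control mean of 7.15 lay just under the guide. The difference was 0.52 ± 0.49, with an adjusted p of 0.815. Leaving out Dmrt1 KO replicate 3 gave 1.15 (adjusted p = 0.136), while leaving out replicate 1 or 2 gave 0.10 and 0.31. Odf2, a protein of the outer dense fibres and of centrioles, read 12.69, 12.48 and 12.56 in Dmrt1 KO arrays, against 13.01, 12.48 and 12.54 in controls (-0.09 ± 0.22). The outer dense fibre gene Odf1 read 8.0, 7.0 and 7.67 in Dmrt1 KO arrays and 6.84, 7.19 and 7.94 in controls (0.23 ± 0.36). Akap3, an anchor protein of the fibrous sheath, read 7.76, 7.33 and 7.24 in Dmrt1 KO arrays and 7.36, 8.13 and 7.34 in controls (-0.17 ± 0.28). For these 3 genes the groups overlapped.

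The remaining flagellar members lay at background in both groups. Meig1, a gene of the manchette on which the sperm tail is assembled, differed by -0.32 ± 0.34, and Catsper1, a calcium channel subunit of the tail, by 0.24 ± 0.51. Spata19, of the sperm mitochondria, Smcp, of the mitochondrial capsule, and Akap4, the main protein of the fibrous sheath, had means of 4.72, 4.61 and 4.45, each below 4.78, the median of the olfactory receptor rows. Their differences were 0.15 ± 0.36, -0.16 ± 0.19 and -0.18 ± 0.24. The neighbouring kinase genes Tssk2 and Tssk1, active in spermatids, differed by -0.03 ± 0.24 and -0.67 ± 0.29. Tssk2 read 7.62, 7.30 and 7.97 in Dmrt1 KO arrays and 7.86, 7.61 and 7.50 in controls, while both Tssk1 means were below the guide. As the 2 kinases are paralogs, how far each row detects only its own gene was not tested.

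Sperm chromatin genes replace histones in the elongating spermatid, first with transition proteins and then with protamines. Tnp2, Prm3, Prm2 and Prm1 follow one another in the annotation of chromosome 16. Their differences lay above 0 for Tnp2, Prm3 and Prm2 and below 0 for Prm1, none past the adjusted test. All but Prm3 had a mean over the arrays below the guide, and whether the cluster moves together was not tested. Prm1, the protamine of all mammalian sperm, read 6.80, 6.35 and 6.47 in Dmrt1 KO arrays, against 7.58, 6.90 and 7.47 in controls. Every Dmrt1 KO array was below every control and below the guide, which control replicates 1 and 3 exceeded. The Prm1 difference was -0.78 ± 0.25 (unadjusted p = 0.0145, limma adjusted p = 0.393), and with log2(value + 50) it was -0.55. Prm3, a gene in the same cluster and the 1 gene of this list above the guide, read 8.93, 9.44 and 10.13 in Dmrt1 KO arrays, against 9.23, 8.94 and 9.38 in controls (0.32 ± 0.32). Whether its protein takes part in replacing histones was not tested. The Dmrt1 KO arrays of Prm3 enclosed the controls. The difference was 0 without Dmrt1 KO replicate 3, 0.60 without Dmrt1 KO replicate 1 and 0.19 without control replicate 2. Prm2 and Tnp2 differed by 0.41 ± 0.29 and 0.35 ± 0.23, and Tnp1, on chromosome 1, by -0.17 ± 0.22, all with overlapping groups and both means below the guide.

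None of the sperm forms of glycolytic enzymes reached the guide. Pgk2 is the retrogene for phosphoglycerate kinase that takes over from the X-linked Pgk1 in spermatocytes. It read 5.99, 6.06 and 6.46 in Dmrt1 KO arrays, against 4.68, 4.52 and 6.66 in controls, where control replicate 3 lay above every Dmrt1 KO array (0.89 ± 0.53, and 0.38 with log2(value + 50)). Ldhc, the sperm lactate dehydrogenase, differed by 0.49 ± 0.31 and Gapdhs, the sperm glyceraldehyde-3-phosphate dehydrogenase, by -0.39 ± 0.31. The forms used by other cells were above the guide: Pgk1 differed by -0.01 ± 0.20, Ldha by 0.29 ± 0.23 and Gapdh by -0.22 ± 0.22, none past the test.

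**Figure D3:**
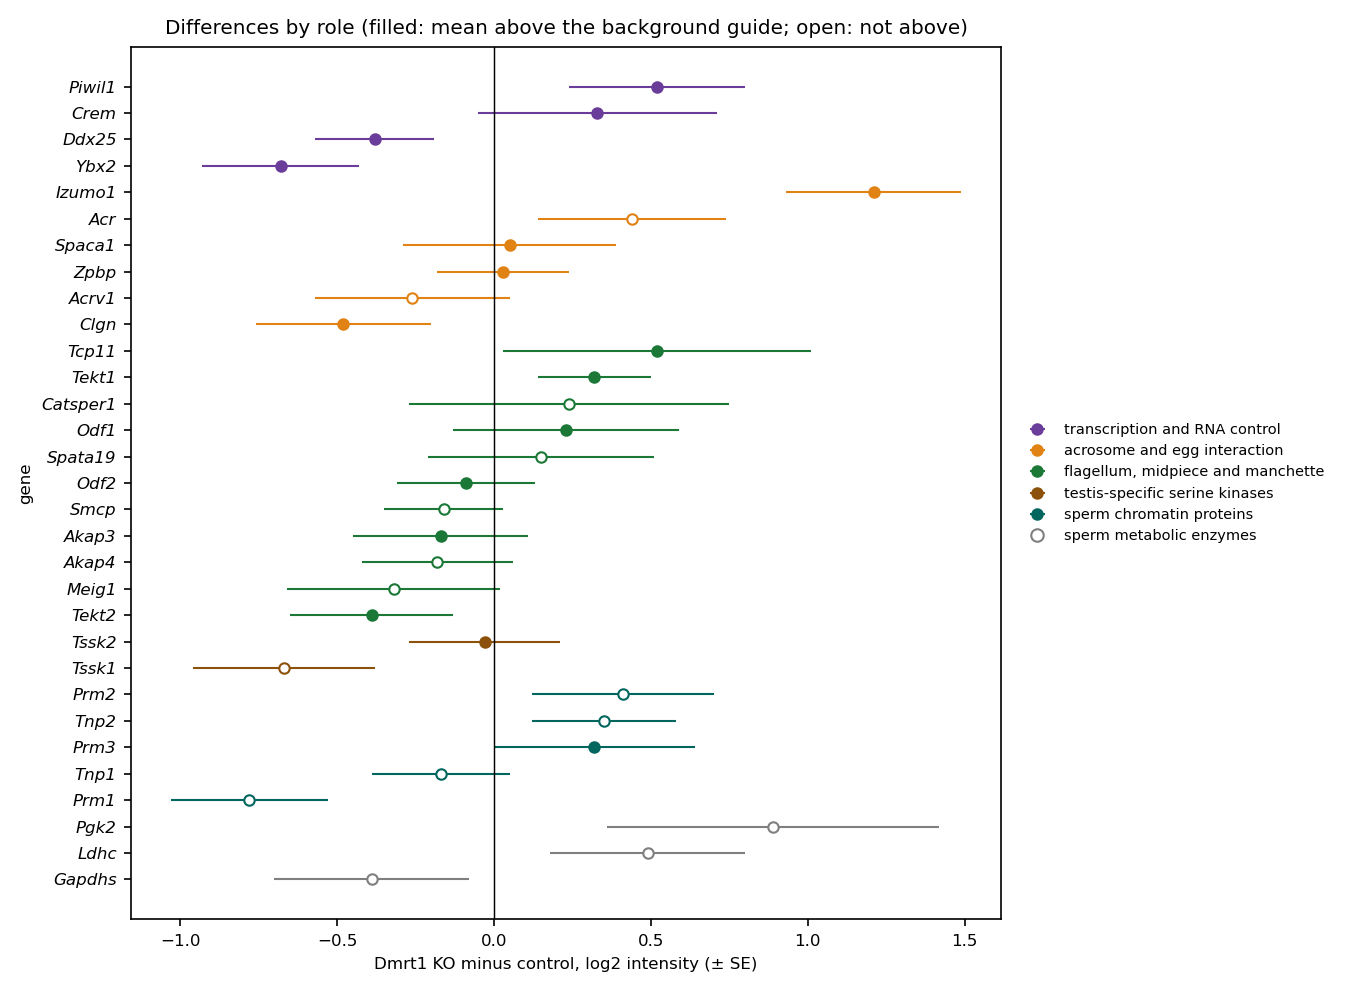
Difference in log2 intensity, Dmrt1 KO minus control (x axis, points with SE bars, n = 3 arrays per group), for the 31 measured members (y axis) coloured by role. Filled points had a mean above the background guide and open points did not, Izumo1 lies furthest to the right at 1.21 and Prm1 furthest to the left at -0.78.

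The wider spread among Dmrt1 KO arrays was not limited to these genes. The within-group SD was larger in the Dmrt1 KO group for 12 of the 16 members above the guide (75%), against 59.4% of all rows above it. The mean SD of these members was 0.44 in Dmrt1 KO arrays and 0.23 in controls, and that of all rows above the guide was 0.33 in Dmrt1 KO arrays and 0.25 in controls. Dmrt1 KO replicate 3 alone was the highest array for 5 of these 16 members (Crem, Piwil1, Prm3, Tekt1 and Tssk2) and the lowest for 6 (Akap3, Clgn, Ddx25, Spaca1, Tcp11 and Ybx2). Of all rows above the guide, 17.8% were highest and 32.4% lowest on that array. Whether the members differ from other rows in this was not tested. The median difference of the 16 was 0.28 in the first array number group and -0.05 in the second, each of which holds 1 Dmrt1 KO array. In both, 10 of 16 members kept 1 sign.

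Other late germ cell genes were read from a longer list. Of 61 genes 58 were measured and 25 had a mean above the guide. None passed the adjusted test, 23 lay above 0 and 35 below, and the median was -0.13. The groups did not overlap in 5 genes, all lower in the Dmrt1 KO arrays as were 8.54% of all rows, and in 0 that were higher. Ropn1l, a protein of the sperm tail, read 7.81, 7.73 and 7.59 in Dmrt1 KO arrays, against 8.33, 8.37 and 8.03 in controls (-0.53 ± 0.20, adjusted p = 0.452). Adam1a, a surface protease-like protein gene of sperm, differed by -0.63 ± 0.28, and Spag4, a nuclear envelope protein gene of spermatids, by -1.05 ± 0.42 with a mean below the guide. Without Dmrt1 KO replicate 3 they were -0.37 for Adam1a and -0.51 for Spag4.

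Of 12 genes that regulate the late programme 11 were above the guide and 10 lay below 0 (median -0.22), again with 0 past the test. Papolb, a poly(A) polymerase of spermatids that is on both lists, was the 1 with separated groups: it read 9.24, 9.71 and 9.66 in Dmrt1 KO arrays, against 9.76, 9.97 and 9.91 in controls (-0.34 ± 0.21). Of all rows, 8.54% were separated and lower. Mybl1, which encodes the A-MYB factor of pachytene spermatocytes, differed by -0.51 ± 0.35, and Rfx2, a factor for cilium and spermatid genes, by -0.49 ± 0.37, both with overlapping groups. Fhl5, the coactivator of CREM in the testis, had both means below the guide.

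Genes of meiotic prophase, the stage before the late programme, lay mostly below 0. Of 26 listed genes 17 were measured, all above the guide. Of these 17, 15 were below 0, with a median of -0.49. In 8 all Dmrt1 KO arrays were below all controls (8.54% of all rows, 9.63% of rows above the guide), but 0 passed the adjusted test. Their summed intensity was 130241, 138859 and 96293 in Dmrt1 KO replicates 1, 2 and 3, against 134380, 163328 and 131250 in controls, with Dmrt1 KO replicate 3 lowest, control replicate 2 highest and an overlap between groups. The median deviation of the prophase genes from their own means, in which each gene counts alike, did not overlap, at -0.20, -0.10 and -0.50 in Dmrt1 KO arrays, against 0.14, 0.59 and 0 in controls. That of the 16 members above the guide was 0.10, -0.14 and 0.04 in Dmrt1 KO arrays, against -0.12, -0.08 and -0.08 in controls, and did overlap. The prophase genes with separated groups and the smallest p were Stra8, needed for meiotic entry (-1.63 ± 0.27), the helicase gene Hfm1 (-1.74 ± 0.52) and the crossover gene Msh5 (-1.23 ± 0.37), all lower. The part of the prophase genes in the differences of Ybx2 and Ddx25 was not tested.

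The remaining lists had 0 genes past the adjusted test. Over all rows, every Dmrt1 KO array lay above every control in 6.8% and below every control in 8.54%. Of 7 measured genes of differentiating spermatogonia 5 lay above 0, and beside Stra8 the groups were separated for Rhox10 (0.94 ± 0.22) and Sohlh1 (0.50 ± 0.20), both higher. Of 14 Sertoli cell genes 9 lay above 0, with Trf (0.66 ± 0.20) and Gata4 (0.17 ± 0.18) higher and Gata1 (-0.53 ± 0.23) and Wt1 (-0.17 ± 0.19) lower in every Dmrt1 KO array. Macrophage and leukocyte genes were below 0 for 9 of the 9 measured, and the groups were separated for Cd163 (-1.15 ± 0.30, mean below the guide), C1qa (-0.50 ± 0.25, and -0.27 without Dmrt1 KO replicate 3) and C1qc (-0.24 ± 0.19, and -0.14 without that array). Of 11 measured counterparts of members in other cells 5 lay above 0, and Canx and Atf1, a relative of Crem (0.17 ± 0.19), had separated groups.

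**Figure D4:**
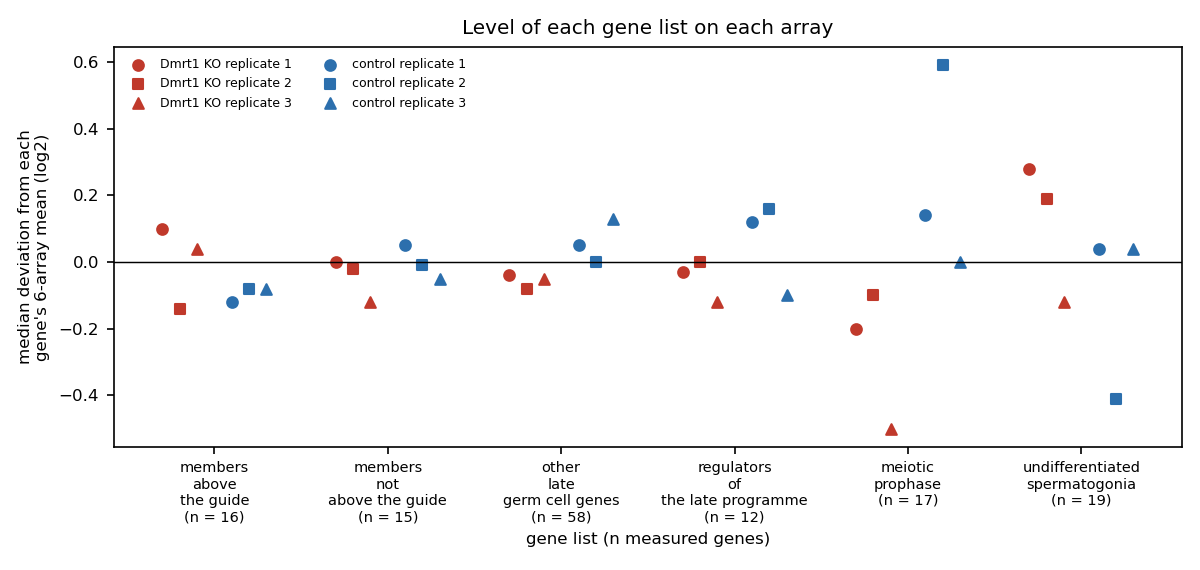
Median deviation from each gene's mean over 6 arrays (y axis, log2) for 6 gene lists (x axis), with Dmrt1 KO arrays in red and control arrays in blue and a symbol for each replicate. The 2 groups of members stay within 0.14 of 0 on every array, while the prophase list runs from -0.50 in Dmrt1 KO replicate 3 to 0.59 in control replicate 2.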

How the data were processed

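Cy3-labelled RNA of 6 testis samples was measured on NimbleGen expression arrays, 1 sample each, per the labels. The deposited table gives linear intensity, 1 value per RefSeq accession and array, made by the authors with RMA per the submitters' processing notes. They ran from 8.81 to 65190, so log2 was taken before any test. The sources used here name no version, background correction or probe annotation.

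Accessions without version were matched to symbols of GRCm38.p6, which named 17780 of 25631 rows (69.4%). Where a gene had more than 1 row, that of highest mean was taken. Samples were grouped by their titles. Replicate numbers follow the order of deposition. Array number groups share the start of the array number in the titles. They hold replicate 1 of both groups, then Dmrt1 KO replicate 2 with control replicates 2 and 3, then Dmrt1 KO replicate 3 alone.

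All rows were fitted with lmFit and eBayes of limma (version 3.58.1) in R (version 4.3.3), with no covariate. Benjamini-Hochberg adjustment ran over all rows, with a threshold of 0.05. The fit was tested on simulated data. Intervals are 95% and unadjusted. The number of arrays limits the precision: the median SE of a difference was 0.23 over rows above the guide.

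All 32 members were to be named. Members with a mean above the guide, separated groups or an unadjusted p under 0.05 were given by array. From other lists, up to 3 genes in each direction with separated groups and the smallest p were named by rule. Pgk2, Crisp1 and Spink8 were also given by array, and the related genes of other cells, Mybl1, Rfx2 and Fhl5 were named, after their values were seen. The members and lists were chosen with earlier results of these data known. Promoter windows are those of RefSeq, searched on both strands over 250 bases. Figures were drawn with matplotlib version 3.10.9.

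The alternatives were quantile normalization, subtraction of array medians, eBayes with trend and robust settings, leaving out rows with a mean under the median row, log2(value + 50), the array number group as a block, the mean of rows per gene, other background guides and leaving out each array.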

Additional observations from a re-analysis of the deposited data

How the results depend on the processing

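No member passed the adjusted threshold under any alternative (0 in each, and 0 to 0 with 1 array left out), with Izumo1 between 1.02 and 1.48 and its adjusted p between 0.0955 and 0.663. The count above background followed the guide: 9 members with the 99th percentile of olfactory receptor rows and 28 with the 75th, against 16. Taken on each array by itself, the guide ran from 6.89 on Dmrt1 KO replicate 1 to 7.76 on Dmrt1 KO replicate 3. On that reading 11 members lay above the guide on each of 6 arrays. The median difference of the members above the guide was -0.09 with rows under the median row left out and -0.09 with the 99th percentile guide, where fewer members enter, and ran from -0.07 to 0.13 with 1 array left out. The median of all members was -0.06 when array number groups were blocked, which gives Dmrt1 KO replicate 3 no weight, and ran from -0.11 to 0.07 with 1 array left out. The count above the guide ran from 15 to 16 with 1 array left out.

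The difference changed sign in 12 of 211 recomputed values of 17 members, those above the guide and Prm1. Of the members that changed sign, Crem had the largest difference in the main fit, 0.33. With 1 array left out, Spaca1 ran from -0.26 to 0.43 (below 0 without Dmrt1 KO replicate 1 or, at -0.01, replicate 2) and Zpbp from -0.11 to 0.12 (below 0 without Dmrt1 KO replicate 1 or, at -0.03, control replicate 3). Crem ran from -0.04, without Dmrt1 KO replicate 3, to 0.72, and was -0.10 with the block. Odf1 ran from -0.01 to 0.54 and Odf2 from -0.19 to 0.07, both changing sign without control replicate 1. Akap3 ran from -0.33 to 0.09, above 0 without control replicate 2. Tssk2 ran from -0.20 to 0.14, above 0 without Dmrt1 KO replicate 2 or, at 0.08, control replicate 1, and was 0 with array medians subtracted. The cause was not tested. No paired analysis was possible because the labels carry no replicate numbers shared between the groups. The fit blocked on array number groups, in which Izumo1 was 1.48 (adjusted p = 0.0955), compares Dmrt1 KO with control arrays within the 2 groups that hold both.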

Other observations

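The protein-coding genes beside the separated members in the annotation were read for comparison, a choice made after seeing the data. Izumo1 has Fut1, a fucosyltransferase gene, and Rasip1, an endothelial gene, as its nearest neighbours. Rasip1 differed by 0.07 ± 0.35 and Mamstr, the next gene, by 0.47 ± 0.28 (SE, n = 3 arrays per group), with overlapping groups, while on the other side Fut1 and Fgf21 had both means below the background guide. All Dmrt1 KO arrays of Fut1 lay above all controls (0.51 ± 0.23, limma adjusted p = 0.542). Beside Ybx2, Eif5a, a translation factor gene, differed by -0.08 ± 0.28 and Slc2a4, a glucose transporter gene, by -0.39 ± 0.29. Beside Ddx25, where the adjacent Gm1113 was not analysed here, Pus3, a pseudouridine synthase gene, differed by -0.19 ± 0.22. Beside Piwil1, where the adjacent Rimbp2 was not analysed here, Stx2, the syntaxin gene after it, differed by 0 ± 0.23 and Fzd10, a Wnt receptor gene on the other side, by 0.18 ± 0.20. Beside Tekt1, where the adjacent Fbxo39 was not analysed here, Smtnl2 differed by 0.19 ± 0.22. All of these except Fut1 had an adjusted p of at least 0.657 in limma.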
